A study of Homo sapiens with 9 samples.

Results

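The comparison set the small RNA held back by a PD-L1 3'UTR bait against the small RNA of the lysate from which it was drawn. Its members were the 3 PD-L1 3'UTR libraries and the 3 input libraries, picked by their labels from the 9 libraries of the series. The other 3 libraries came from an MS2 control bait and are given beside the members as background. In miTRAP, a bait RNA made in vitro with MS2 loops is held on amylose beads by a protein that binds those loops, incubated with lysate, washed and eluted with whatever it held. The input is the lysate RNA without this step, so the comparison asks which miRNAs the bait concentrated and which it left behind, relative to their level in the cell.

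All libraries came from ES-2, one ovarian cancer derived cell line, with the labels giving a WT genotype and no treatment for each group. PD-L1 3'UTR and input therefore share cells and genotype and differ by the trapping step. The replicate numbers come from the sample titles, and nothing in the labels says that they were separate cultures, so the p values measure the spread between these libraries. The bait was added in a larger amount for the PD-L1 3'UTR than for the MS2 control, so that bait sequence and bait amount cannot be told apart between the trapped groups. How much of the 3'UTR the bait carried was not analysed here.

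PD-L1, encoded by CD274, is the surface ligand through which tumour cells hold back T cells carrying PD-1. A miRNA is loaded into an Argonaute protein and pairs with target RNA mainly through its seed, the stretch at bases 2 to 8 of the mature strand. Each hairpin precursor yields a 5p and a 3p arm, of which one usually dominates as the guide, and miRNAs of different genes with one seed are grouped as a family. Trapping on a 3'UTR therefore reads out loaded miRNAs that stay on the RNA, together with whatever adheres to resin, loops and bait.

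The mature sequences on which the results turn are printed from RefSeq (GRCh38.p14), 5′ to 3′, with the seed in capitals, and host genes are from GENCODE. The first set holds gains on the bait that were even across its replicates, except miR-876-3p, which had 14.2, 22.8 and 33.4 CPM there.
miR-17-5p: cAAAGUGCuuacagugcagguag
miR-106b-5p: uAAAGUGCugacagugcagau
miR-20a-5p: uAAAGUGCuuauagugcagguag
miR-18a-5p: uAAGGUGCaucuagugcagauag
miR-140-5p: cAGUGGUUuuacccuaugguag
miR-374a-3p: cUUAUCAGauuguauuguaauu
miR-190a-5p: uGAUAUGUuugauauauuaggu
miR-876-3p: uGGUGGUUuacaaaguaauuca

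The first 3 of these share the seed AAAGUGC, and the seeds of miR-140-5p and miR-876-3p end in the same GUGGUU. miR-17-5p lies at chr13:91350618-91350640, miR-20a-5p at chr13:91351072-91351094 and miR-18a-5p at chr13:91350756-91350778, all on the plus strand. miR-106b-5p lies at chr7:100094043-100094063 (minus strand, an intron of MCM7) and miR-140-5p at chr16:69933103-69933124 (plus strand, an intron of WWP2). miR-374a-3p lies at chrX:74287295-74287316 (minus strand, an intron of FTX), miR-190a-5p at chr15:62823971-62823992 (plus strand, an intron of TLN2) and miR-876-3p at chr9:28863636-28863657 (minus strand, an intron of LINGO2). The second set holds losses from the bait.
miR-484: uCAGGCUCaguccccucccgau
miR-185-5p: uGGAGAGAaaggcaguuccuga
miR-361-3p: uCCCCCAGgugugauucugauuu
miR-7-5p: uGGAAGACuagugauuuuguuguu
let-7i-5p: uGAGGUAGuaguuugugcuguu
miR-103a-3p: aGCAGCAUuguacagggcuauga

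miR-484 lies at chr16:15643301-15643322 (plus strand, overlapping an exon of NDE1), miR-185-5p at chr22:20033153-20033174 (plus strand, an intron of TANGO2) and miR-361-3p at chrX:85903641-85903663 (minus strand, an intron of CHM). let-7i-5p lies at chr12:62603691-62603712 (plus strand, an intron of MIRLET7IHG). miR-7-5p and miR-103a-3p each come from more than one locus in the table, such as chr9:83969811-83969834 (minus strand, overlapping an exon of HNRNPK) and chr5:168560904-168560926 (minus strand, an intron of PANK3). The third set holds pairs that share a seed and were called in opposite directions, and the arm that faces miR-140-5p in its hairpin.
miR-21-5p: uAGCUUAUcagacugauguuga
miR-590-5p: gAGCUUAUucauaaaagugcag
miR-148b-3p: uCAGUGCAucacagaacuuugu
miR-152-3p: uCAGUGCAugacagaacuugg
miR-100-5p: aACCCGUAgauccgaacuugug
miR-99a-5p: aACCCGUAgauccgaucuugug
miR-140-3p: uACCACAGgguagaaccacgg

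miR-21-5p lies at chr17:59841273-59841294 (plus strand, overlapping an exon of VMP1) and miR-590-5p at chr7:74191213-74191234 (plus strand, an intron of EIF4H). miR-148b-3p lies at chr12:54337278-54337299 (plus strand, an intron of COPZ1) and miR-152-3p at chr17:48037174-48037194 (minus strand, an intron of COPZ2). miR-100-5p lies at chr11:122152275-122152296 (minus strand, an intron of MIR100HG), miR-99a-5p at chr21:16539101-16539122 (plus strand, an intron of MIR99AHG) and miR-140-3p at chr16:69933142-69933162, downstream of its 5p arm.

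The input libraries held 3794799 to 5983577 miRNA counts and the PD-L1 3'UTR libraries 672824 to 1237652, so a floor of 3 counts was worth at most 1.01 TMM-scaled counts per 1000000 (CPM) in an input library and at most 4.02 CPM in a PD-L1 3'UTR library. Of 2652 mature miRNA names, 1500 had a count and 408 were tested. Of the miR-200 epithelial family, miR-200c-3p had 36.5 to 48.9 CPM and miR-200b-3p 3.15 to 5.52 CPM in the input, and miR-429 had no count in any library. Among 13 listed markers of liver, muscle, neuron and blood, miR-133a-3p, miR-133b, miR-124-3p and miR-144-3p had no count in the input, while miR-9-5p of neurons had 206, 219 and 250 CPM and miR-142-5p of blood cells 150, 112 and 116 CPM.

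PD-L1 3'UTR replicate 1 stood apart from the other libraries in the replicate plot. After 2 CPM were added, 11 miRNAs were at least 4-fold above the mean of replicates 2 and 3 there, against 0 to 3 in the other 8 libraries, each against its own group. These 11 took 3.93% of its counts, against 0.0945% and 0.0437% in replicates 2 and 3. They included miR-143-3p, miR-148a-3p, miR-203a-3p, miR-1-3p, miR-122-5p, miR-126-3p, miR-127-3p, miR-451a and miR-200b-3p, among them miRNAs known from smooth muscle, skin, muscle, liver, endothelium and erythroid cells. Untested markers moved with them: miR-206 of muscle had 469, 1 and 0 counts in PD-L1 3'UTR replicates 1, 2 and 3, and miR-133a-3p had 97, 0 and 4. Whatever set this library apart was not tested, and the values that rest on it are given with and without it.

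**Figure D1:**
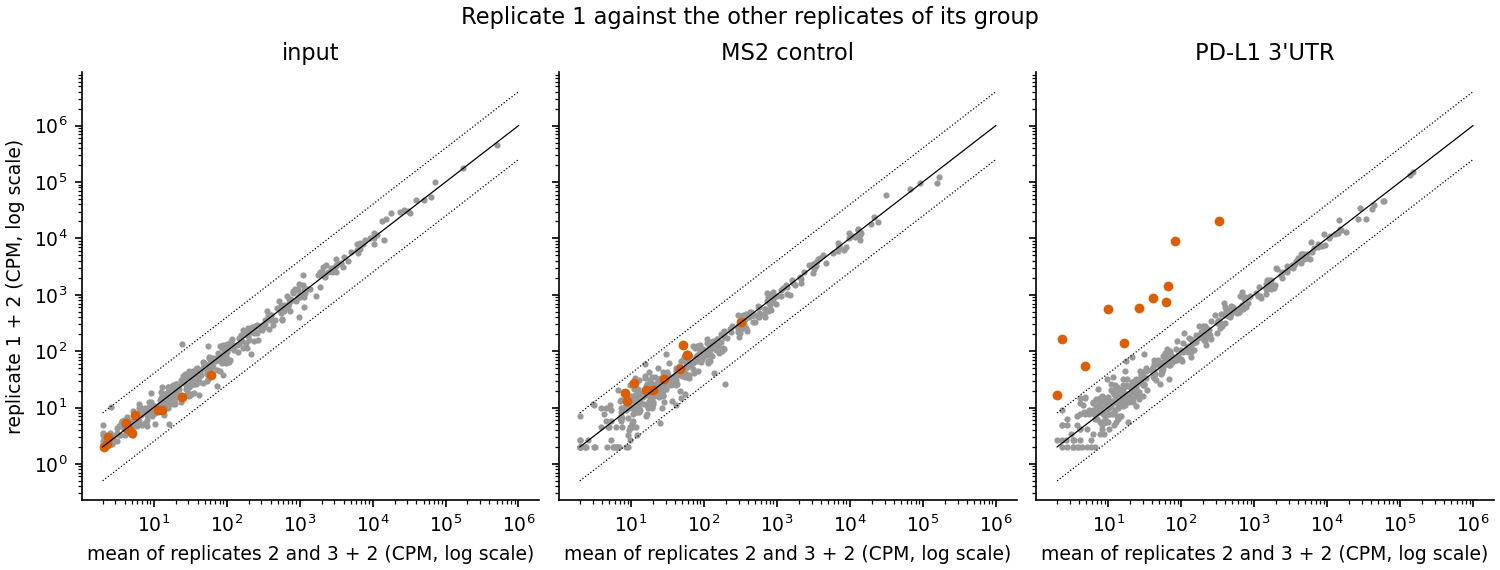
Level of each of the 408 tested miRNAs in replicate 1 (y axis) against the mean of replicates 2 and 3 (x axis), both as TMM-scaled CPM with 2 added on log scales, for input, MS2 control and PD-L1 3'UTR. Dotted lines mark 4-fold; the 11 orange points are the miRNAs past that line in PD-L1 3'UTR replicate 1, and they lie with the rest in the other groups.

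With edgeR (quasi-likelihood test, threshold of 0.05 on the Benjamini-Hochberg adjusted p), 139 of 408 miRNAs (34.1%) were higher on the PD-L1 bait than in the lysate and 132 (32.4%) were lower, 66.4% in either direction. In the MS2 control, set against the same input libraries, 134 (32.8%) were higher and 151 lower, 69.9% in either direction. Differences of at least 10-fold were 48 gains and 21 losses. Of these gains, 10 passed the filter in the input libraries alone, so their excess follows in part from the filter. The losses were not split in this way. The median log2 fold change over all 408 was 0.04. The 6 libraries did not overlap between the groups for 305 miRNAs (74.8%). Without PD-L1 3'UTR replicate 1, 120 of the 139 were again higher and 126 of the 132 again lower. The split depended on scaling: with library totals, the median of all miRNAs rose by 0.57, giving 192 gains and 89 losses, a share of 68.3% gains among the calls against 51.3%. All 228 miRNAs called under both scalings kept their direction.

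The most abundant miRNAs of the cell were mostly lost, as the plot of retention against lysate level shows, and the medians did not change steadily with level. To keep the grouping apart from the medians, miRNAs were binned by input replicate 1 and the difference was taken from the other libraries, on log2(CPM + 1). The calls counted in each bin come from the fit with all libraries, input replicate 1 among them, so they are not apart from the binning. Among the 17 miRNAs above 10000 CPM, 12 (70.6%) were lower and 3 (17.6%) higher, with a median difference of -1.27. The 3 that rose were miR-155-5p, miR-30a-5p (0.42) and miR-30d-5p (0.49), and the call of miR-30a-5p was lost in 7 alternatives (adjusted p from 0.0568 to 0.518): with no filter, and without any input library, PD-L1 3'UTR replicate 2 or 3 or MS2 control replicate 3. Among the 47 miRNAs between 1000 and 10000 CPM, 20 were higher and 16 lower (median 0.18), and among the 88 between 100 and 1000 CPM, 20 were higher and 41 lower (median -0.48). Of the 146 between 10 and 100 CPM, 34 were higher and 58 lower (median -0.72). Without PD-L1 3'UTR replicate 1 these medians were -1.34, 0.15, -0.50 and -0.61, and with library totals they were -0.71, 0.74, 0.07 and -0.21. In the MS2 control, which shares the input libraries, they were -0.83, -0.23, -0.81 and -0.60.

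Under 10 CPM the calls could not be read apart from the filter. The median difference there was 1.32 on the PD-L1 bait and 1.70 in the MS2 control. All 110 miRNAs of this bin passed it only with help from trapped libraries, so that their 62 gains against 5 losses follow in part from the choice. Over the whole table, 122 of 408 miRNAs passed in this way. The 286 that passed in the 3 input libraries alone held 75 gains and 124 losses, with a median difference of -0.53. They were chosen by the same input libraries that form the baseline, so that these losses can follow in part from that choice. Of the 48 gains of at least 10-fold, 10 were among these 286, and they are miR-148a-3p, miR-106b-5p, miR-140-5p, miR-106a-5p, miR-374a-3p, miR-17-5p, miR-542-3p, miR-135b-5p, miR-4521 and miR-18a-5p.

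**Figure D2:**
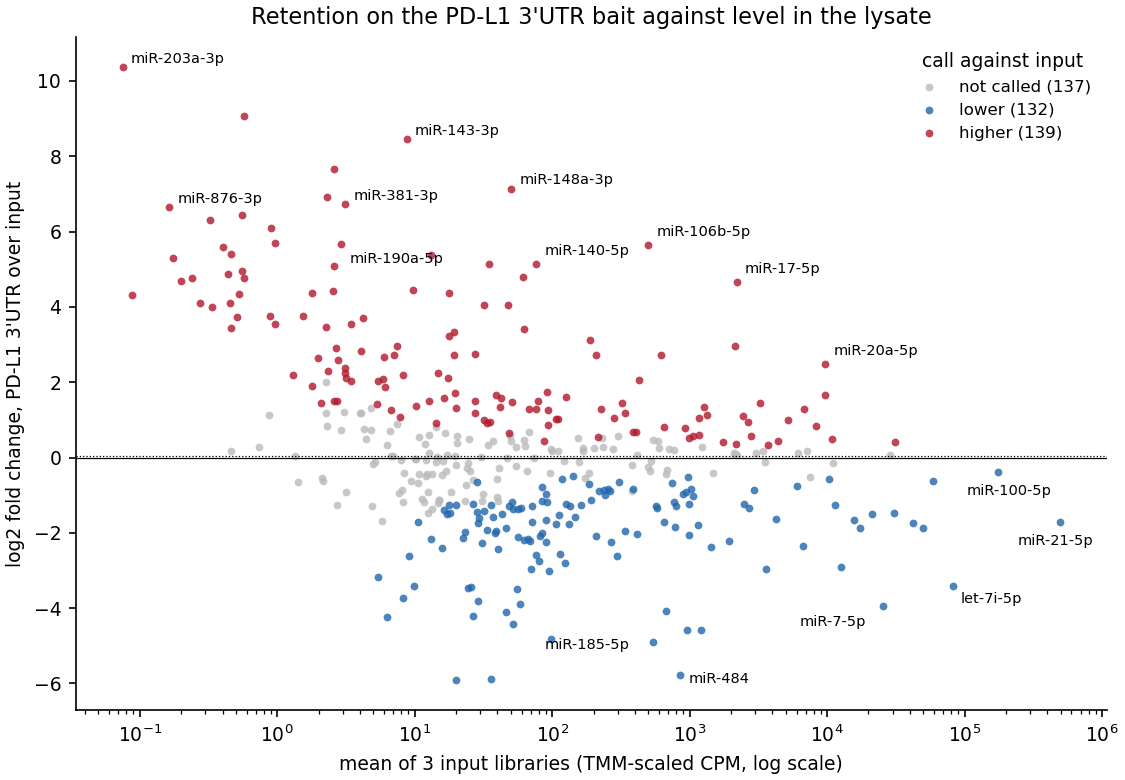
Log2 fold change of PD-L1 3'UTR over input (y axis) against the mean CPM of the 3 input libraries (x axis, log scale) for the 408 tested miRNAs; red points were higher (139), blue lower (132) and grey not called (137), and the dotted line is the median of all. Gains of over 4 on the log2 scale lie mostly at low input levels, and most miRNAs at the right edge lie below 0.

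Counts were spread over more miRNAs on the bait than in the lysate. The leading miRNA, miR-21-5p, took between 34.5% and 39.1% of the counts of each input library and between 16.7% and 17.1% of each PD-L1 3'UTR library. The 10 leading miRNAs of each library held 75.9% to 77.9% of input counts and 62.3% to 67.6% of PD-L1 3'UTR counts. In the MS2 control they held 67.3% to 68.9%. The 10 most abundant input miRNAs held 77.1% ± 1.08 (SD, n = 3) of input counts and 49.6% ± 0.150 of PD-L1 3'UTR counts. They held 56.6% ± 4.73 of MS2 control counts. This set was chosen by its input level, so a lower share elsewhere follows in part from the choice. In turn, 2 to 3 miRNAs made up 50% of an input library and 5 to 6 made up 50% of a PD-L1 3'UTR library, and for 90% the numbers were 26 to 27 and 37 to 42. The MS2 control also took 4 to 5 miRNAs for 50% and 31 to 32 for 90%. Of the 10 leading miRNAs, 5 were common to input and PD-L1 3'UTR, namely miR-21-5p, miR-100-5p, miR-92a-3p, miR-30a-5p and miR-222-3p.

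The abundant miRNAs did not move alike. miR-21-5p, an oncogenic miRNA of many tumours, had 459406, 500447 and 518559 CPM in the input and 149667, 151169 and 149311 CPM with the bait. miR-100-5p, the runner-up, had 180527, 165237 and 177428 CPM against 131214, 135085 and 136442 CPM. The libraries of the groups did not overlap for either, with log2 fold changes of -1.72 ± 0.17 (SE, edgeR adjusted p = 1.31e-05) and -0.38 ± 0.09 (adjusted p = 0.00396). With library totals miR-100-5p turned to 0.19 (adjusted p = 0.0999), so only its loss relative to the median miRNA is shown. miR-10a-5p, of the HOX loci, fell from a mean near 50132 to 13639 CPM (-1.88 ± 0.11), miR-221-3p by 1.74 and miR-26a-5p by 1.48 on the log2 scale. miR-155-5p, an immune-response miRNA, had 10335, 9272 and 9463 CPM in the input and 22500, 33442 and 35866 CPM with the bait, a rise of 1.66 ± 0.17 (adjusted p = 1.31e-05). miR-222-3p, whose cluster partner miR-221-3p fell, was at 31771, 26028 and 28284 CPM against 35185, 33319 and 22762 CPM, and its libraries overlapped. In the MS2 control, miR-21-5p, miR-100-5p, miR-10a-5p, miR-221-3p and miR-26a-5p also fell against the input (-1.86, -0.90, -2.82, -1.67 and -0.45). There miR-155-5p did not pass (0.24) and miR-222-3p fell (-1.13).

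Among the 10 gains named by size, 6 rested on PD-L1 3'UTR replicate 1. miR-143-3p, known from smooth muscle, had 7.10, 8.77 and 10.4 CPM in the input and 9124, 121 and 39.9 CPM with the bait. Its log2 fold change was 8.46 ± 1.87 with all libraries and 3.11 without replicate 1. miR-148a-3p had 35.3, 68.4 and 48.0 CPM against 20762, 476 and 181 CPM, for 7.14 (adjusted p = 0.00259) and, without replicate 1, 2.65. The other four were miR-203a-3p (10.36, and 5.66 without it), miR-127-3p (9.06 and 6.0), miR-1-3p (7.65 and 4.52) and miR-451a (6.92 and 4.63). All 6 passed the test both ways and lay above the input in each bait library. miR-203a-3p, though, had 2 counts in PD-L1 3'UTR replicate 3, under the floor of 3 counts. In the MS2 control the 6 log2 fold changes over the input were, in the order given, 2.90, 2.69, 5.85, 4.93, 4.84 and 4.80. By contrast, miR-126-3p and miR-200b-3p lost their calls without replicate 1 (1.27 and 1.67, adjusted p = 0.105 and 0.0737). miR-122-5p, the main liver miRNA, had 161, 0 and 0.726 CPM with the bait, and its gain of 4.42 turned to -2.37 (adjusted p = 0.0492). Leaving out input replicates 1, 2 or 3 also ended its call (adjusted p = 0.0660, 0.0634 and 0.0755). Of the 13 listed markers of other cell types, 6 were tested and 6 were higher than the input (median 3.01), where 34.1% of all tested miRNAs were. miR-122-5p, miR-1-3p and miR-451a among them passed the filter only with trapped libraries. The list had 5 higher and 1 lower without replicate 1, and 3 higher and 1 lower in the MS2 control. Their summed level was 417 to 478 CPM in the input, 546 to 617 CPM in the MS2 control and 1071 to 4045 CPM with the bait, and their part in the gains was not tested.

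Among the 10 named gains, miR-106b-5p and miR-148a-3p alone passed the filter in the input libraries. The other 8 passed it only with trapped libraries, so that their calls follow in part from the choice. miR-106b-5p, of the miR-106b-25 cluster, had 353, 510 and 630 CPM in the input and 22371, 28815 and 23581 CPM with the bait. This gain was 5.65 ± 0.23 on the log2 scale (edgeR adjusted p = 2.12e-08), 50.1-fold in mean CPM, and 5.67 without replicate 1. miR-190a-5p had 3.16, 2.70 and 2.93 CPM against values between 144 and 162 CPM (5.67 ± 0.52), and 0, 2.38 and 0 CPM in the MS2 control. miR-381-3p had 8.15, 1.01 and 0.225 CPM against 428, 193 and 387 CPM (6.72 ± 1.14), and 8.96 without input replicate 1 or 5.98 without input replicate 3. The MS2 control also held 24.6, 98.7 and 291 CPM of it. miR-1248 had 13.4, 16.9 and 9.46 CPM against 567, 519 and 548 CPM (5.37 ± 0.30), with 176, 239 and 135 CPM in the MS2 control. So miR-106b-5p and miR-190a-5p lay below the input in the MS2 control in mean CPM, and miR-381-3p and miR-1248 lay above it.

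Without replicate 1, the same naming rule gave 10 gains of which 4 were as before, and it added miR-140-5p, miR-106a-5p, miR-374a-3p, miR-17-5p, miR-542-3p and miR-4521. miR-140-5p, known from cartilage, had between 72.1 and 81.1 CPM in the input, 90.5, 104 and 99.1 CPM in the MS2 control and 2495, 2675 and 2947 CPM with the bait. Its gain was 5.15 ± 0.16 (adjusted p = 3.72e-09) with all libraries and 5.15 without replicate 1, and its bait libraries lay far above both other groups. miR-374a-3p, of the FTX locus, had 74.2, 55.0 and 55.9 CPM against 1421, 1882 and 1823 CPM (4.79 ± 0.31). miR-542-3p had 15.3, 21.9 and 16.2 CPM against 316, 407 and 387 CPM (4.38 ± 0.30). Both were lower than the input in the MS2 control (-0.84 and -1.28, edgeR adjusted p = 0.0200 and 0.00404). miR-4521 had 41.0, 58.7 and 44.4 CPM against 721, 844 and 808 CPM (4.04 ± 0.20), and rose in the MS2 control as well (2.98). miR-17-5p, which gave its name to the family, had 2511, 2063 and 2026 CPM in the input and 46343, 63812 and 58031 CPM with the bait.

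Some gains started from almost nothing, in miRNAs that passed the filter only with trapped libraries. miR-876-3p had 1, 0 and 1 counts in the input libraries and 20, 17 and 46 on the bait, a ratio of 132 in pooled rates with an exact 95% interval from 35.3 to 1104. It had no count in the MS2 control. miR-590-5p had 1, 2 and 2 counts against 37, 18 and 19 (ratio 46.9, interval 19.2 to 149) and miR-7974 had 2, 2 and 2 against 65, 48 and 61 (91.9, interval 41.4 to 254). miR-7974 was higher still in the MS2 control, with 84.7 to 129 CPM against 44.3 to 64.4 CPM with the bait. miR-375-3p had 2, 0 and 2 counts against 91, 15 and 16, with a log2 fold change of 6.32 that was 5.22 without replicate 1. In the MS2 control miR-590-5p and miR-375-3p were also higher than the input (3.69 and 4.66). Such intervals and floors hold for counting error alone, because PCR copies are not separate molecules. Reads of miR-590-5p lie close to the 3-count floor in the input, where the size of the gain is least certain.

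The 10 named losses were led by miR-484. This miRNA, known to be made without the Drosha cut, had 788, 825 and 935 CPM in the input and between 12.1 and 17.7 CPM with the bait, a loss of -5.77 ± 0.27 on the log2 scale (edgeR adjusted p = 5.18e-08). miR-185-5p had 538, 512 and 564 CPM against 23.4, 9.39 and 18.9 CPM (-4.91 ± 0.30). miR-361-3p had 1276, 1126 and 1215 CPM against 68.7, 53.7 and 27.6 CPM (-4.59 ± 0.34), miR-197-3p had 604, 993 and 1287 CPM against 36.8, 41.6 and 42.1 CPM (-4.58 ± 0.33) and miR-342-3p had 517, 670 and 822 CPM against 43.9, 26.8 and 46.4 CPM (-4.08 ± 0.26). In each case every bait library lay below every input library. All 5 also fell in the MS2 control, with log2 fold changes of -5.14, -2.53, -1.71, -4.17 and -3.36.

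Other losses took the opposite direction in the MS2 control. let-7i-5p, a tumour-suppressive let-7 member, had 100225, 71019 and 74094 CPM in the input, 8025, 6897 and 8082 CPM on the PD-L1 bait and 121886, 160885 and 172468 CPM with the MS2 control. Its log2 fold changes over the input were -3.41 ± 0.18 and 0.89. miR-423-5p had 3064, 3704 and 4110 CPM in the input, 457, 482 and 466 CPM on the PD-L1 bait (-2.95 ± 0.14) and 10225, 10279 and 9401 CPM with the MS2 control (1.46). miR-7-5p, a growth-restraining miRNA, fell on both baits, by 3.93 on the PD-L1 bait and by 1.05 in the MS2 control. miR-221-5p fell to a like extent on both, from 9347, 13627 and 14808 CPM to 1325, 1823 and 1878 CPM on the PD-L1 bait and 975, 1505 and 1486 CPM with the MS2 control. The tenth, miR-421, fell by 2.79.

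**Figure D3:**
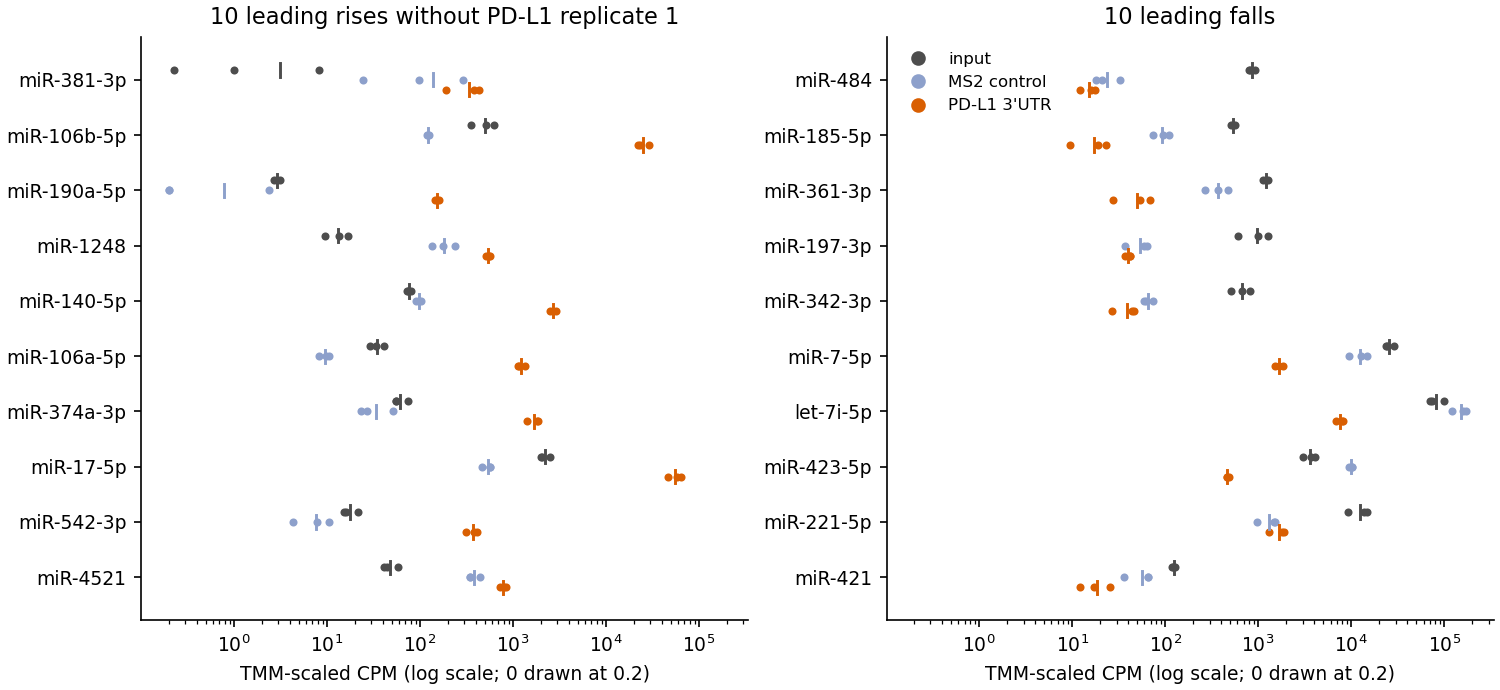
TMM-scaled CPM (x axis, log scale, with 0 drawn at 0.2) of each library as a point and each group's mean as a bar, for the 10 leading gains by the naming rule without PD-L1 3'UTR replicate 1 (left) and the 10 leading losses (right). Orange PD-L1 3'UTR points lie apart from the dark input points for each miRNA shown, and the blue MS2 control points lie on either side of the input.

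At the low end, miR-5100 had 160, 80 and 173 counts in the input and 1, 0 and 1 with the bait, 65.2-fold lower in pooled rates (exact 95% interval 17.9 to 540). miR-5010-3p had 92, 64 and 64 counts against 0, 0 and 1 (69.4-fold lower, interval 12.3 to 2754) and no count in the MS2 control. miR-10401-3p had 114, 130 and 282 counts against 3, 3 and 3 (18.4-fold lower, interval 9.64 to 40.6). miR-194-3p and miR-3177-3p, with 1, 2 and 0 and with 0, 2 and 3 counts on the bait, were less certain, and the call of miR-194-3p was lost without either of PD-L1 3'UTR replicates 1 and 3 (adjusted p = 0.0687 and 0.102). In the MS2 control miR-5100 and miR-10401-3p also fell (-4.08 and -3.09), and miR-194-3p and miR-3177-3p did not pass (-1.53 and 0.28). At this depth, levels under the floor of 2.12 to 4.02 CPM could not be told from 0 on the bait.

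Counts were then summed over miRNAs with one seed, which sidesteps the split of reads between near-identical members. Of 344 seed sums, 109 (31.7%) were higher and 110 (32.0%) lower than the input. For 36 seeds with at least 2 tested members, 8 (22.2%) sums were higher and 15 (41.7%) lower. Every tested member went the same way and passed the test for 11 of them, 5 higher and 6 lower. Among the 5, the seeds of miR-18a-5p and miR-15a-5p hold members that passed the filter only with trapped libraries. These are miR-18b-5p, miR-195-5p and miR-497-5p. The seed of miR-17-5p and its kin, AAAGUGC, rose from 13068, 15092 and 15481 CPM in the input to 128967, 174379 and 156225 CPM on the bait (3.36 ± 0.18, edgeR adjusted p = 4.16e-08), and all 6 tested members passed. The members spread from 2.49 for miR-20a-5p to 5.65 for miR-106b-5p, and this spread was not uniform with input level, since miR-20a-5p was the most abundant of them in the input. Their reads differ at few bases, so how reads were divided among them is uncertain.

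The 3 other largest gains of shared seeds follow. AAGGUGC, of miR-18a-5p and miR-18b-5p, rose from 62.9, 60.3 and 64.0 CPM to 579, 691 and 722 CPM (3.37 ± 0.22). AGUGCAA, of miR-130b-3p, miR-301a-3p, miR-301b-3p and miR-454-3p, rose from 257, 225 and 214 CPM to 1513, 1534 and 1942 CPM (2.80 ± 0.23), with 3 of 4 members passing the test. Of these members, miR-301a-3p and miR-301b-3p passed the filter only with trapped libraries. miR-130a-3p, counted apart because no sequence was at hand, rose by 3.24. CAGUGCA, of the miR-148 family, rose from 4358, 4187 and 4284 CPM to 28935, 11159 and 9760 CPM (1.87 ± 0.31), and by 1.38 without replicate 1. The miR-19 seed GUGCAAA, from the same polycistron as miR-17-5p, was at 517, 505 and 490 CPM against 641, 657 and 752 CPM and did not pass (0.40 ± 0.22, adjusted p = 0.136). The miR-25 and miR-92 seed AUUGCAC, from these polycistrons too, fell (-0.65, adjusted p = 0.00380) with 2 of 4 members lower, and was at -0.05 with library totals. The polycistron list, both arms of miR-17-92, miR-106a-363 and miR-106b-25, had 28 members, of which 20 were tested. Of these 10 were higher and 2 lower (median 0.83), against 34.1% and 32.4% of all 408, and with library totals 15 were higher and 1 lower. Of the 18 that passed the filter in the input libraries, 9 were higher and 2 lower.

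The deepest losses of shared seeds were AUGCACC (miR-501-3p and miR-502-3p, -2.84 ± 0.29), GCAGCAU (miR-103a-3p and miR-107, -2.36 ± 0.20), GAGGUAG (let-7, -2.36 ± 0.22) and CUGGACU (miR-378, -2.25 ± 0.20). GCAGCAU fell from 6837, 7243 and 7131 CPM to 1125, 1495 and 1605 CPM. GAGGUAG fell from 177403, 121579 and 126740 CPM to 30256, 23832 and 31981 CPM, with 8 of 9 members lower. The exception, let-7b-5p, was at 2557, 1916 and 2196 CPM against 2885, 2047 and 2132 CPM. With library totals 6 members were lower and let-7b-5p was higher (0.66, adjusted p = 0.00916). Against the input, the seed sums of miR-501-3p, miR-103a-3p and miR-378 also fell in the MS2 control (-1.51, -3.42 and -0.84). The let-7 sum rose in the MS2 control (0.88, edgeR adjusted p = 0.00342), with 7 of 9 members higher and 1 lower. The miR-103a-3p sum thus fell further in the MS2 control. Both miR-103a-3p and miR-107 were higher on the PD-L1 bait than in the MS2 control (1.03 and 1.16).

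For 4 seeds, members were called in opposite directions. miR-21-5p fell while miR-590-5p, of the same seed, rose by 5.40 from its few input counts. miR-148b-3p rose from 3408, 3161 and 3175 CPM to 7509, 10014 and 8866 CPM (1.44 ± 0.19), and miR-152-3p fell from 915, 957 and 1060 CPM to 663, 668 and 714 CPM (-0.52 ± 0.13), which turned to 0.05 with library totals. miR-99a-5p, which sits beside let-7c, rose from 8047, 5791 and 6593 CPM to 21028, 14348 and 14406 CPM (1.28 ± 0.18) while miR-100-5p did not. The fourth seed was that of miR-320b and miR-320d.

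**Figure D4:**
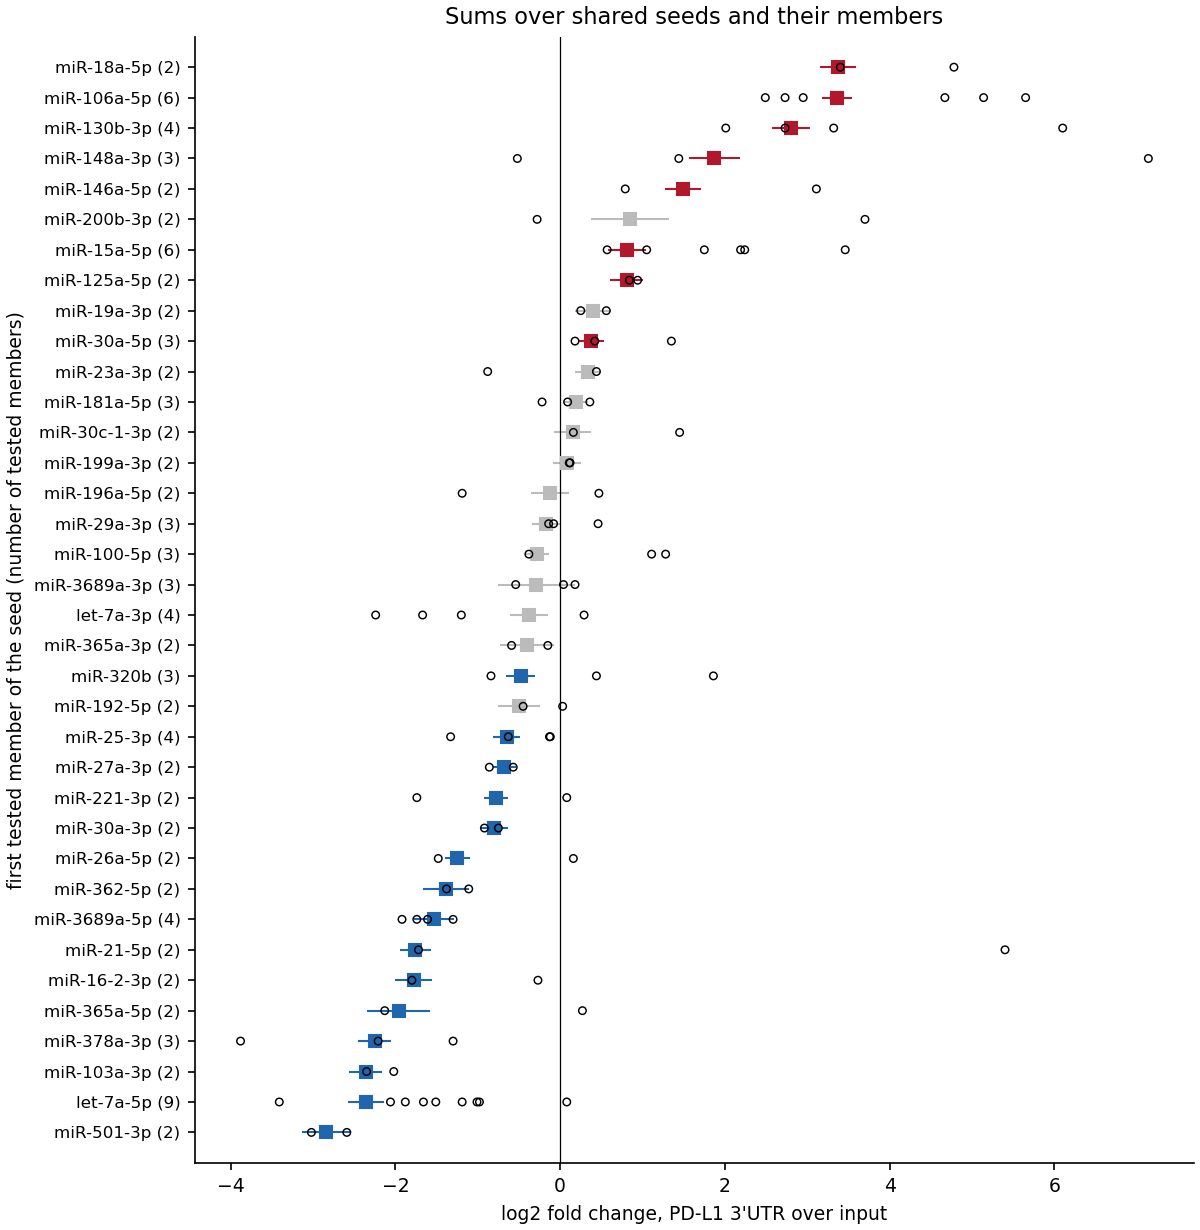
Log2 fold change of PD-L1 3'UTR over input (x axis) for the summed counts of 36 shared seeds (squares with SE; red higher, blue lower, grey not called) and for their tested members (open circles), each row named by its first member. The miR-17, miR-18 and miR-130 sums lie highest with all members above 0, and the miR-148a-3p and miR-21-5p rows hold members on both sides of 0.

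Both arms were tested for 101 hairpins, and the ratio of arms within a library does not depend on scaling. The arms differed in their change for 72 hairpins (71.3%), with the 5p arm gaining on the 3p arm in 39 and the reverse in 33. The median size of the difference was 1.96 and the largest 6.12 on the log2 scale. Of 65 hairpins whose arms both passed the filter in the input libraries, 47 (72.3%) differed. In 19 hairpins (18.8%) one arm was higher and the other lower than the input, 11 of them with the 5p arm higher.

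miR-140 was the clearest case. Its 5p arm rose as given above, while the 3p arm, the major one in the input, fell from 1029, 972 and 1077 CPM to 484, 669 and 582 CPM, so that the arms differed by 5.98 ± 0.28 (edgeR adjusted p = 2.91e-13). In the input the 3p arm was thus the more abundant in every library, and on the bait the 5p arm was. miR-31, which is often lost in tumours, had 668, 586 and 618 CPM of the 5p arm in the input against 4498, 4480 and 3422 CPM, and 65.0, 83.9 and 106 CPM of the 3p arm against 21.9, 24.1 and 18.1 CPM (difference 4.72 ± 0.44). miR-629 differed by 5.53 ± 0.75, with 350, 397 and 533 CPM of the 5p arm against 1481, 1809 and 2043 CPM. For miR-27b, miR-100 and let-7c the arm that rose was nearly absent from the input (means of 0.575, 2.59 and 1.78 CPM), and this arm passed the filter through trapped libraries. miR-424 went from 795 to 327 CPM in its 3p arm and from 91.5 to 308 CPM in its 5p arm, and let-7d from 986 to 237 CPM in its 5p arm and from 339 to 769 CPM in its 3p arm, all as group means. The MS2 control means were 2098 and 23.9 CPM for miR-424-3p and miR-424-5p, and 3294 and 1400 CPM for let-7d-5p and let-7d-3p. With library totals 13 hairpins kept arms called in opposite directions, and miR-140-3p, miR-27b-3p and let-7c-5p lost their calls (-0.26, -0.28 and -0.40).

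**Figure D5:**
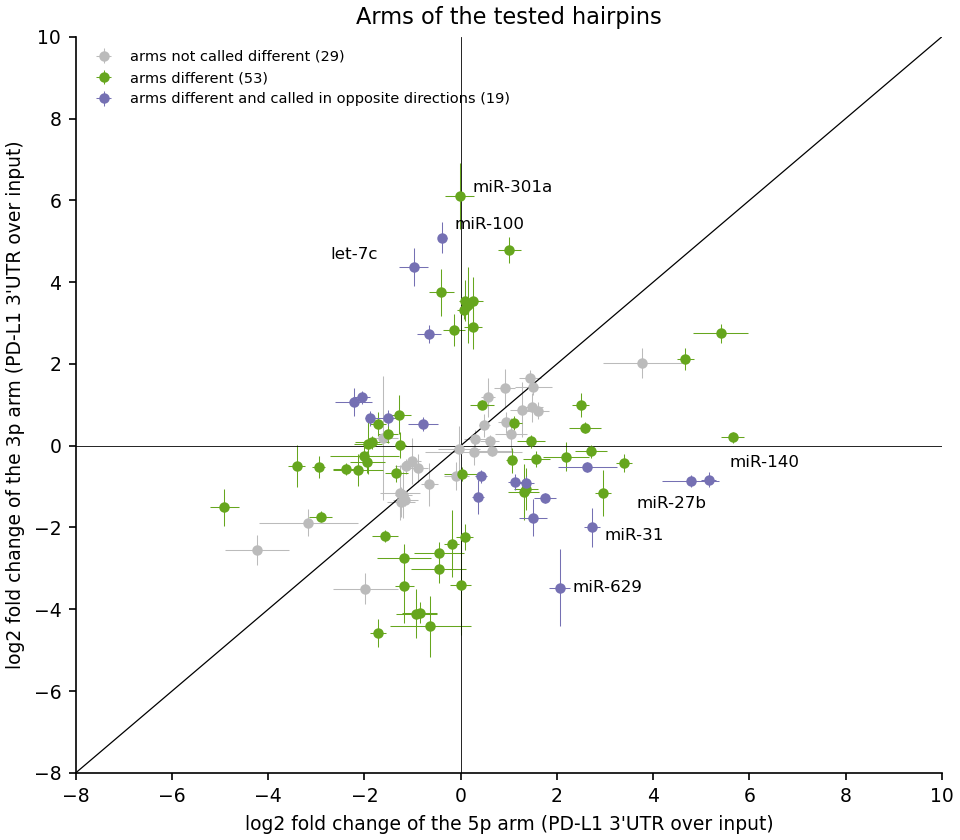
Log2 fold change over the input of the 3p arm (y axis) against that of the 5p arm (x axis) for 101 hairpins, with SE bars; the line marks equal change. Purple hairpins (19) have arms called in opposite directions, green ones (53) differ without that, and grey ones (29) were not called different; miR-140 lies far right and below 0.

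The sequences of the tested miRNAs were set against the 3'UTR of the CD274-202 transcript, 2692 bases long in GENCODE on GRCh37. Searched were matches to bases 2 to 8, to bases 2 to 7 followed by A, and both together, called an 8mer, on the strand of the transcript. Of 371 tested miRNAs with a sequence, 104 (28.0%) had a match. The share was 39.2% (49 of 125) among those higher on the bait, 26 of 118 among those lower and 22.7% (29 of 128) among those not called. In the other 1241 3'UTRs of 90 to 110% of that length, the same searches found a match on average in 29.4%, 27.7% and 29.0% of UTRs for the miRNAs of these classes. Counted by seed, since members of a family share their matches, 35 of 95 higher sums (36.8%), 21 of 96 lower sums (21.9%) and 26 of 116 not called (22.4%) had one. Among miRNAs that passed the filter in the input alone the shares were 43.3%, 22.5% and 24.7%. Over 16 alternative settings the share ranged from 32.9% to 43.3% for the higher miRNAs and from 16.7% to 23.0% for the lower.

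8mers were found for 33 miRNAs, 14.4% of the higher, 5.93% of the lower and 6.25% of those not called. The median log2 fold change was 1.07 for these 33, 0.51 for the 104 with any match and -0.07 for the 267 without. These 8mer shares and medians count each family member and include miRNAs that passed the filter only with trapped libraries. All 6 tested AAAGUGC members are among the higher miRNAs with an 8mer. Neither the 8mer shares nor the medians were taken by seed or among miRNAs that passed in the input alone. The AAAGUGC seed had 1 match, the 8mer GCACTTTA at bases 2496 to 2503 of the 3'UTR, and its 7 letters GCACTTT occur in 36.8% of the 3'UTRs of like length. miR-140-5p matched AACCACTA at bases 848 to 855 (17.2% hold AACCACT), and miR-876-3p matched AACCACCA at bases 1849 to 1856 (13.1% hold AACCACC). miR-224-3p, at most at 3.37 CPM in the input and at up to 25.4 CPM on the bait, matched ACCATTTA at bases 1004 to 1011, and the miR-148 family matched TGCACTGA at bases 1935 to 1942. Of these, miR-876-3p and miR-224-3p passed the filter only with trapped libraries, so that their gains follow in part from the choice. A match did not mark every gain: miR-18a-5p, miR-190a-5p, miR-381-3p and miR-374a-3p had none in these letters. Nor was it absent from losses, as miR-484 matched GAGCCTG at bases 196 to 202 and miR-185-5p CTCTCCA at bases 1925 to 1931. A match describes letters in this transcript and is no measured site.

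Base composition differed between the classes. The median GC content was 45.5% for the 125 higher miRNAs with a sequence, 52.1% for the 118 lower ones and 47.8% for the 128 not called. Within the seed the medians were 42.9%, 57.1% and 42.9%. Median length was 22 in each class, and a U at the first base, common in Argonaute-loaded miRNAs, was found in 45.6%, 45.8% and 38.3%. Over the alternative settings the median GC content stayed at 45.5% for the higher miRNAs and lay between 50% (library totals) and 54.5% (no filter) for the lower. Its part in the retention was not tested.

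The list of miRNAs published as PD-L1 regulators outside the seed families had 19 members. Of these 9 were tested, 5 higher and 3 lower, where 34.1% and 32.4% of all tested miRNAs were (median 1.31, against 0.04 for all tested). With library totals 6 were higher and 2 lower. miR-375-3p, at 2 counts or fewer in each input library, passed the filter only with trapped libraries. miR-155-5p, miR-142-5p, miR-340-5p, miR-324-5p and miR-375-3p were higher, and miR-21-5p, miR-197-3p and miR-140-3p lower. miR-340-5p had 298, 329 and 346 CPM in the input and 918, 912 and 804 CPM on the bait (1.44 ± 0.22), and miR-142-5p had 459, 400 and 290 CPM on the bait, each above its input libraries (adjusted p = 0.000229). miR-34a-5p, often named in this context, did not pass the filter, with 4, 3 and 8 counts in the input and 3, 1 and 5 on the bait. Whether it differed was not tested. Of the miR-15/16 list, miR-195-5p and miR-497-5p passed the filter only with trapped libraries, and the 4 that passed in the input were all higher, from 0.57 for miR-16-5p and 1.05 for miR-15b-5p to 2.24 for miR-15a-5p. The call of miR-16-5p was lost in 11 alternatives (adjusted p from 0.0515 to 0.353), among them leaving out any input library, PD-L1 3'UTR replicate 2 or 3 or MS2 control replicate 1 or 3. That of miR-15b-5p was lost in 5, without any input library or PD-L1 3'UTR replicate 2 or 3 (adjusted p from 0.0530 to 0.112).

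The remaining lists are read against the 34.1% of all tested miRNAs that were higher and the 32.4% that were lower. Of the miR-29 list none of 3 passed (median -0.08), of the miR-181 list 1 of 3 tested was higher (0.09) and of the miR-30 list 3 of 5 were higher and 1 lower (0.42). The miR-26 list had 1 of 2 lower (-0.66), the list of miR-221-3p and miR-222-3p 1 of 2 lower (-0.83) and the miR-23/27/24 list 2 higher and 2 lower of 5 (-0.57). The list of miR-10, miR-99/100 and miR-125 had 4 higher and 3 lower of 7 (0.84), in which both miR-10 members fell. Without PD-L1 3'UTR replicate 1, miR-181 had none called and miR-23/27/24 had 1 higher and 3 lower. With library totals, the miR-29 and miR-181 lists each had 2 of 3 higher, miR-30 had 4 higher and 1 lower, miR-23/27/24 had 2 higher and 0 lower, and miR-26 and the list of miR-221-3p and miR-222-3p each had 1 higher and 1 lower. miR-200b-3p, which passed the filter only with trapped libraries, was the only higher member of the miR-200 list (median 1.71), of which 2 of 5 were tested, and neither passed without replicate 1.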

How the data were processed

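The authors deposited raw counts, whole reads per mature miRNA locus, in one table of 9 libraries. Per the labels (the submitters' processing notes), reads were trimmed with cutadapt 1.18, aligned with Bowtie2 2.2.6 (hg38) and counted with featureCounts 1.6.3. Here the 2883 loci were summed to 2652 names, since 169 names had several loci. Counts were tested with edgeR 4.0.16 in R 4.3.3 (filterByExpr by group, TMM factors of 0.742 to 0.782 for the input and 1.109 to 1.145 for the PD-L1 3'UTR, glmQLFit and glmQLFTest, two-sided) in one model of 3 group means over all 9 libraries, with Benjamini-Hochberg adjustment over all tested. Arms were compared with diffSpliceDGE. The SE of a log2 fold change was its size over the square root of F. The common biological coefficient of variation was 31.1%. Every pair of replicates differed by more than sampling noise. No spike-in is stated in the sources, so each library gives shares of its own reads.

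Named miRNAs were, for each direction, the 10 largest changes past the threshold with libraries that did not overlap and at least 100 CPM in the higher group, the 10 most abundant in each group, up to 5 at the floor of 3 counts in one group, up to 6 hairpins with opposite arms, up to 4 seed sums, and list members. miR-135b-5p, miR-374a-3p, miR-542-3p, miR-4521, miR-424, let-7d, miR-224-3p and the markers of replicate 1 were named after their values were seen. The members and lists were chosen with earlier results of these data known. The procedure was tested on simulated data. Of the tested miRNAs, 37 had no sequence in the RefSeq table. Host genes and the CD274 3'UTR are from GENCODE on GRCh37. Exact intervals for pooled ratios are binomial (Clopper-Pearson, 95%). Alternatives were DESeq2 1.42.0 and its size factors, library totals, no filter, a mean of 10 CPM, a fit without the MS2 control, an added 2-fold threshold, separate loci, limma 3.58.1 for the arms, the replicate number as a block and each library left out. Lists, names and sequence features without PD-L1 3'UTR replicate 1 were added after seeing the data.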

Additional observations from a re-analysis of the deposited data

How the results depend on the processing

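Counts per miRNA of 139 higher and 132 lower ranged from 116 to 154 and from 129 to 159 when each of the 9 libraries was left out. For seed sums, 109 and 110 ranged from 97 to 138 and from 96 to 129. Hairpins with the 5p arm gaining (39) ranged from 35 to 39, those with the 3p arm gaining (33) from 32 to 39, and opposite arms (19) from 13 to 25. Testing every miRNA with a count gave 201 lower, and 182 lower seed sums. Library totals gave 72 lower seed sums. By construction, the first adds low-count miRNAs and the second moves all fold changes up.

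The replicate numbers did not pair the libraries: deviations of same-numbered input and PD-L1 3'UTR libraries correlated at -0.004, -0.079 and 0.025 across miRNAs. The replicate block gave 135 higher and 128 lower miRNAs, 100 and 106 seed sums, and 40 and 32 hairpins, 18 with opposite arms.

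Directions that turned were those of values near 0 or resting on replicate 1. With library totals miR-100-5p was 0.19, miR-152-3p 0.05 and the miR-320b seed 0.15. miR-222-3p was -0.18 with no filter, -0.02 with only the groups compared, between -0.11 and 0.18 with a library left out, and 0.66 with library totals, where it passed (adjusted p = 0.00411). let-7b-5p was -0.18, -0.03, between -0.14 and 0.07, and 0.66 (adjusted p = 0.00916) likewise. With a library left out, miR-122-5p was between -2.37 (without PD-L1 3'UTR replicate 1) and 4.88, and its highest value over all alternatives was 5.00. The cause was not tested. Depth limits what was left on the bait: a miRNA under 4.02 CPM cannot be told from 0 in PD-L1 3'UTR replicate 2.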
